A study of Mus musculus with 14 samples.

Results

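The comparison of Δ3102 mice with NG-KO mice sets the loss of GPR30 from the whole body against its loss from neurons alone. It was made from 7 of the 14 hippocampal libraries of the series, those of 3 Δ3102 and 4 NG-KO mice, and no WT library entered the test. All were female mice on the C57BL/6J background at 10 weeks of age, with 1 poly(A) RNA library per mouse. In Δ3102 mice, made with CRISPR/Cas9, every cell carried the Gper1 deletion. NG-KO mice carried 2 floxed GPR30 alleles and a Cre transgene driven by the promoter of neuron-specific enolase (GPR30 fl/fl;NSE-Cre), so that their astrocytes and other glia kept the receptor. The groups therefore differ in the cells that lack GPR30, and also in the allele, in the presence of Cre and in the mouse line. Mice with Cre or floxed alleles alone were not analysed here, so these differences cannot be told apart. Sequence differences between the lines were not tested. The other 7 libraries, from 4 AG-KO mice (GPR30 fl/fl;GFAP-Cre, loss from astrocytes) and 3 WT mice, are used below only to show on which side of the 7 a level lies.

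GPR30, encoded by Gper1, is a G protein-coupled receptor for estrogen that sits in membranes and signals through cAMP, calcium and kinase cascades. It differs in this from the nuclear estrogen receptors, which act on DNA. In the hippocampus it is found in neurons and in astrocytes, the cells that take up glutamate and respond to injury with a reactive gene program. By design, astrocytes lack the receptor in Δ3102 mice and keep it in NG-KO mice.

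The 7 libraries held 48235215 to 57805943 counts, and no 2 of the 14 libraries were identical. Tests used the deposited counts, and levels are given in FPKM, fragments scaled to transcript length and to the depth of the library, which allows levels of different genes to be set side by side. Of 55450 genes, the 16597 that reached 0.5 FPKM in 3 or more of these libraries were tested with edgeR's quasi-likelihood test, and p was adjusted over all of them (Benjamini-Hochberg, two-sided). The log2 fold change is Δ3102 minus NG-KO, so that a positive value means higher in Δ3102 mice. Its median over the tested genes was -0.0072. The 4 Y-linked genes Ddx3y, Uty, Kdm5d and Eif2s3y stayed at or below 0.131 FPKM and Xist lay between 12.2 and 20.2 FPKM in all 14 libraries, all of which were labelled female. Hippocampal markers were present in every library. Transcripts of kidney, liver and skeletal muscle were found too, at levels that differed between mice, and are given further on. Some had no signal in some libraries, such as Alb, serum albumin, in AG-KO replicates 3 and 4.

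Gper1 (ENSMUSG00000053647, chromosome 5 of GRCm38, 139423151 to 139427800) separated the genotypes. It had 0.0686, 0.145 and 0.0124 FPKM in Δ3102 mice, against 1.098, 1.41, 0.975 and 1.11 FPKM in NG-KO mice, from 12, 23 and 2 counts in Δ3102 mice and 178, 222, 141 and 154 in NG-KO mice. The groups did not overlap, and AG-KO mice had 0.5403 to 1.38 FPKM and WT mice had 0.797 to 3.04 FPKM. The log2 fold change was -3.85 (standard error 0.68), with an unadjusted p of 5.6e-04 and an adjusted p of 0.3798 from edgeR, so that the receptor itself missed the threshold over all genes. DESeq2 gave it an adjusted p of 3.27e-07. In an exact two-sided permutation test of FPKM over all 35 assignments p was 0.0286, the smallest that 3 against 4 mice allow, and 0.0857 after adjustment over the 6 genes tested in this way. By design Gper1 is deleted in every cell of Δ3102 mice. For genes that are not deleted, fewer cells of a type and less RNA per cell cannot be told apart in tissue RNA of this kind. Of the 26 other tested genes that start within 1 Mb of Gper1, 0 had an unadjusted p under 0.05 in edgeR and 0 were called by edgeR, DESeq2 or limma, against 6.59% of all tested genes at that p. Their median log2 fold change was -0.077. The lowest p among them, 0.0595, was that of Fam20c, a kinase of the secretory pathway.

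With an adjusted p under 0.05 as the threshold, edgeR called 9 of 16597 genes (0.0542%), of which 5 were higher and 4 lower in Δ3102 mice. At an unadjusted p under 0.05 there were 586 genes that were higher (3.53%) and 508 that were lower (3.06%). The FPKM of all Δ3102 mice lay above those of all NG-KO mice for 859 genes (5.18%) and below them for 544 (3.28%). The thresholds of the study's methods, a ratio of mean FPKM above 2 or below 0.5 and a P under 0.05, here from edgeR, were passed by 247 genes (1.49%), 171 higher and 76 lower. All 9 called genes also passed in DESeq2, which called 114 genes, 65 higher and 49 lower. The called genes fall into 4 sets. There were 3 processed pseudogenes of the glycolytic enzyme Gapdh, and 2 genes of chromosome 4, Alad and Invs. Myh10 encodes a nonmuscle myosin, and Wdr77, Dubr and the model Gm49527 were the remaining higher genes. The 3 pseudogenes, Alad, Invs and Myh10, 6 genes in all, stayed past the threshold when any 1 of the 7 libraries was left out. Wdr77 stayed past it only without NG-KO replicate 4, Gm49527 only without Δ3102 replicate 1, and Dubr in 0 of these 7 fits.

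**Figure D1:**
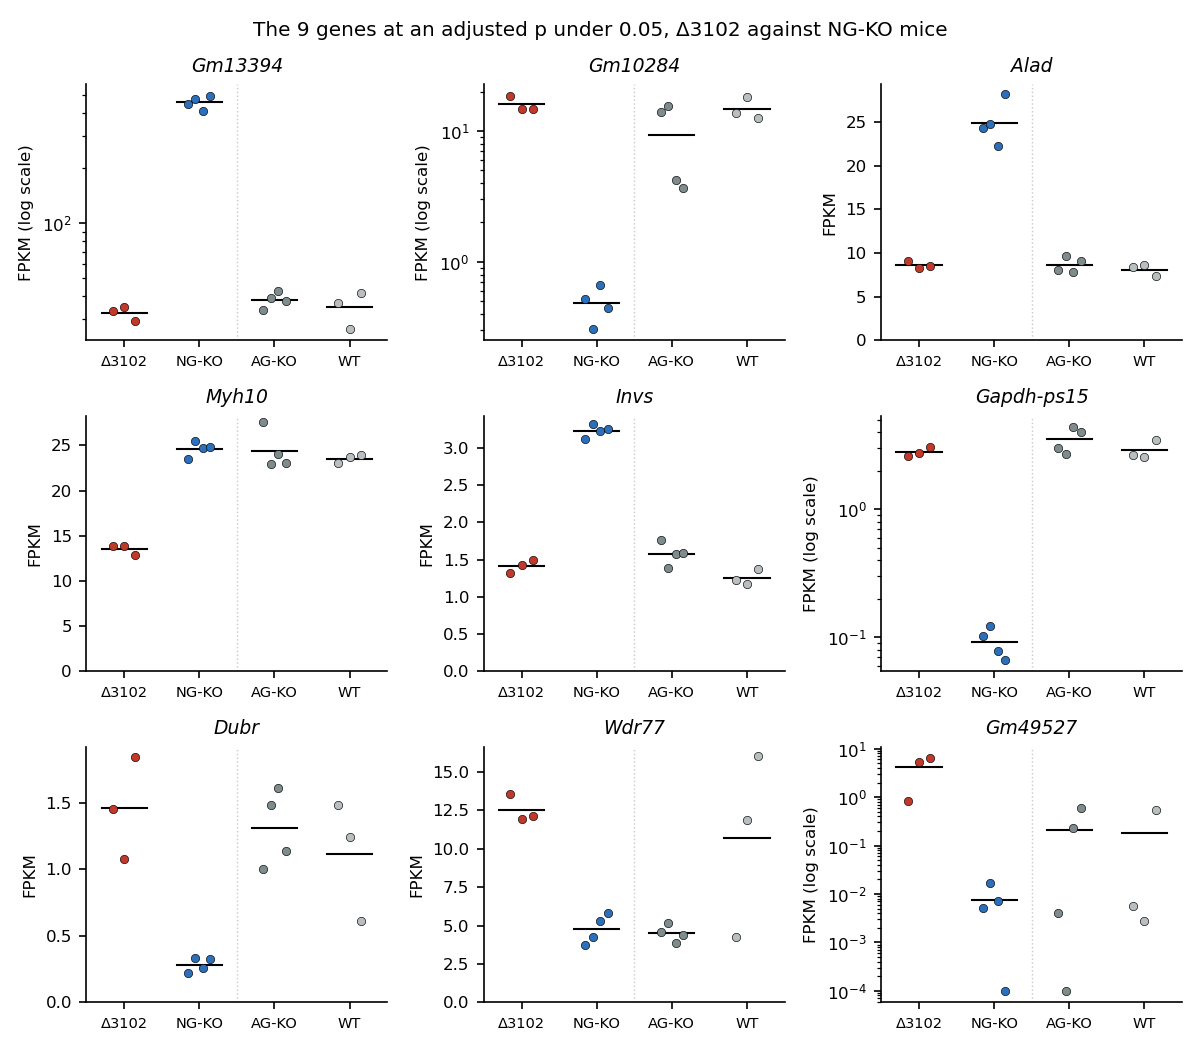
FPKM in every mouse of the 9 genes that edgeR called (1 point per mouse, lines: group means), with Δ3102 and NG-KO mice left of the dotted line and the AG-KO and WT mice, which were not in the test, right of it. Gm13394, Gm10284, Gapdh-ps15 and Gm49527 are on log axes, where 0.0001 is the value the table holds for a gene with no signal. NG-KO mice stand apart from the other 10 mice for Gm13394, Alad, Invs, Gm10284, Gapdh-ps15 and Dubr, and Δ3102 mice from the other 11 for Myh10 and Gm49527.

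The strongest call was Gm13394 (ENSMUSG00000083773, chromosome 2, 28933610 to 28934609), a processed pseudogene of Gapdh, the glyceraldehyde-3-phosphate dehydrogenase of glycolysis. It had 33.03, 35.02 and 29.2 FPKM in Δ3102 mice, against 445, 476, 409 and 494 FPKM in NG-KO mice. The NG-KO mice lay about an order of magnitude above every other library, since AG-KO mice had 33.8 to 42.6 FPKM and WT mice had 26.5 to 41.4 FPKM. This amounted to a log2 fold change of -3.83 (standard error 0.11, adjusted p = 1.3e-05, edgeR). The 2 copies called in the other direction were Gm10284 (chromosome 8, 57550299 to 57551303) and Gapdh-ps15 (chromosome Y, 38619783 to 38620784). Gm10284 had 18.5, 14.8 and 14.7 FPKM in Δ3102 mice, against 0.5198, 0.308, 0.667 and 0.447 FPKM in NG-KO mice, a log2 fold change of 4.98 (standard error 0.28, adjusted p = 0.00148). Gapdh-ps15 had 2.61, 2.74 and 3.05 FPKM in Δ3102 mice, against 0.102, 0.122, 0.0781 and 0.0669 FPKM in NG-KO mice, a log2 fold change of 4.76 (standard error 0.36, adjusted p = 0.00452). For both copies the NG-KO mice lay below all other 10 libraries. Gapdh-ps15 was counted although the Y-linked genes named above were near 0. Gm10284 was not even among the AG-KO mice, at 13.98, 15.6, 4.23 and 3.67 FPKM.

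These copies are nearly the same as Gapdh itself. In the GENCODE vM21 transcripts, 67 genes of the table match the Gapdh mRNA of 1420 bases over at least 900 bases at 95% identity or more, and 31 of them were tested. Reads from 1 of them cannot be told with certainty from reads of another. Gm13394 differs from Gapdh in its aligned 1000 bases by A586C alone, counted from the 5′ end of the mRNA, whose reading frame runs from base 241 to base 1242. It was the only 1 of the 26 copies aligned without gaps that carries this base. The stretch from base 572 to base 600 is shown because this single base, in capitals, is the only difference from Gapdh over the aligned bases of the copy with the smallest p.
Gapdh: agggtggagccaaaAgggtcatcatctcc
Gm13394: agggtggagccaaaCgggtcatcatctcc
Gm10284 differs from Gapdh by C280T, T303C, T390C, C459G, C686T, C831T and C1143T, and Gapdh-ps15 by T303C, T390C, C459G, C462T and C831T. Gm2574 (chromosome 3, 142962611 to 142963612), another copy that was higher in Δ3102 mice at an unadjusted p of 8.87e-05 but missed the threshold (adjusted p = 0.113), differs by T303C, C393T and C831T. The stretches around bases 303 and 831 are shown because all 3 copies share these differences from Gapdh, given in capitals.
Gapdh, bases 289 to 317: accagggctgccatTtgcagtggcaaagt
Gm10284, Gapdh-ps15 and Gm2574 at the same bases: accagggctgccatCtgcagtggcaaagt
Gapdh, bases 817 to 845: ctgtggcgtgatggCcgtggggctgccca
Gm10284, Gapdh-ps15 and Gm2574 there: ctgtggcgtgatggTcgtggggctgccca
The pair of bases was not particular to the copies that differed. Of the 15 copies aligned without gaps that hold both T303C and C831T, 8 were tested, and the other 5 of these 8 had log2 fold changes between -0.34 and 1.02 at unadjusted p of 0.177 or more. Gm2451, the most abundant of the 8, had 37.3 FPKM in Δ3102 mice and 35.9 in NG-KO mice on average. Gm10284 and Gapdh-ps15 also share T390C and C459G, which no other tested copy aligned without gaps holds together. Gm10481 and Gm10290 hold both as well but were not tested.

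Over all 31 tested copies, 3 were called, against 0.0542% of all tested genes. At an unadjusted p under 0.05, 4 were higher and 2 lower, against 3.53% and 3.06% of all tested genes, and the other 25 had log2 fold changes from -0.34 to 1.02. The second copy that was lower in Δ3102 mice, Gm12033, had 97.8, 84.3 and 103 FPKM in Δ3102 mice, against 169, 162, 154 and 133 FPKM in NG-KO mice, a log2 fold change of -0.72 that missed the threshold (adjusted p = 0.184). Gapdh itself (chromosome 6, 125161715 to 125165773) had 32.4 ± 3.39 FPKM in Δ3102 mice (SD, n = 3) and 31.6 ± 5.004 in NG-KO mice (SD, n = 4), a log2 fold change of 0.029 whose sign turned when Δ3102 replicate 2 or NG-KO replicate 1 was left out (-0.042 and -0.061). When the counts of Gapdh and its 67 copies were added up, a step chosen after the data were seen, the sum came to 1556, 1467 and 1488 CPM (counts scaled to the depth of the library) in Δ3102 mice and to 1896, 2039, 1899 and 2164 in NG-KO mice. The groups did not overlap. AG-KO mice had 1408 to 1731 CPM and WT mice 1399 to 1480, so that the NG-KO mice lay above all of them. The sum includes Gm13394, which had 2141, 2128 and 1581 counts in Δ3102 mice and 28351, 29387, 23254 and 26746 in NG-KO mice. The share of this copy in the difference was not tested. The log2 fold change of the sum was -0.42 (standard error 0.054), with an unadjusted p of 6.63e-05 and an adjusted p of 0.122 from edgeR. With Gapdh, Wdr77 and Gm49527 each added up with their copies or overlapping models in this way, 4 genes were called in place of 9, and all 4 were among the 9.

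**Figure D2:**
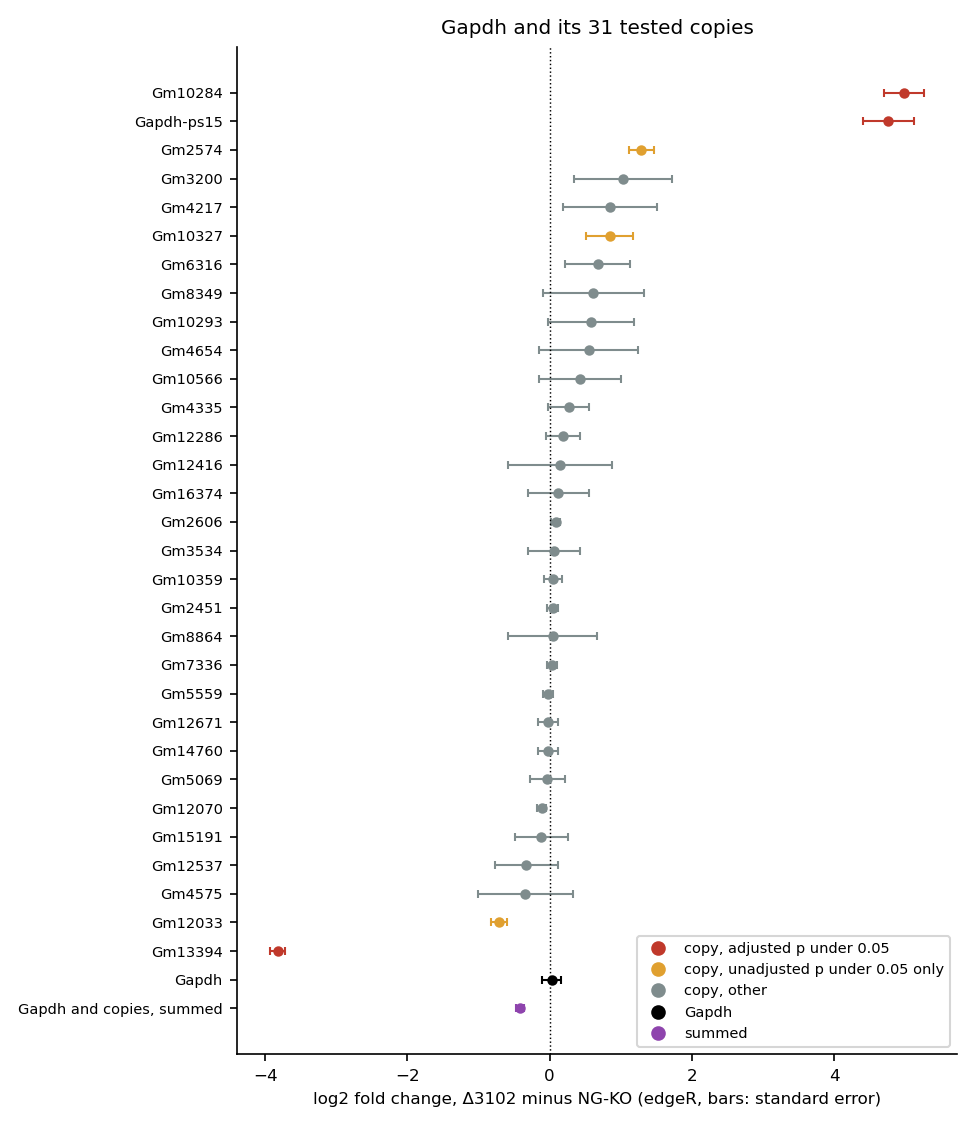
Log2 fold change of Δ3102 minus NG-KO mice from edgeR (x axis, bars: standard error) for the 31 tested copies of Gapdh, for Gapdh itself and for the sum of Gapdh and 67 copies, 1 row each. Gm10284 and Gapdh-ps15 lie at 4.98 and 4.76, Gm13394 at -3.83, Gapdh close to 0 and the sum at -0.42.

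On chromosome 4, Alad and Invs were lower in Δ3102 mice, and the neighbor of Alad pointed the same way. Alad (62509169 to 62519894) encodes delta-aminolevulinate dehydratase, the second enzyme of heme synthesis. It had 9.103, 8.31 and 8.58 FPKM in Δ3102 mice, against 24.3, 24.7, 22.3 and 28.3 FPKM in NG-KO mice, a log2 fold change of -1.53 (standard error 0.10, adjusted p = 0.00283, edgeR), 2.895-fold lower. AG-KO mice had 7.801 to 9.61 FPKM and WT mice had 7.32 to 8.63 FPKM, so that NG-KO mice were the group that stood apart. Hdhd3, a hydrolase of the haloacid dehalogenase family, lies 5702 bases from Alad by coordinate, with both genes on the minus strand. It had 2.58, 2.30 and 3.37 FPKM in Δ3102 mice, against 7.63, 9.78, 6.97 and 11.3 FPKM in NG-KO mice, a log2 fold change of -1.71 that did not pass (standard error 0.23, adjusted p = 0.119). Here too the NG-KO mice lay above all other 10 libraries, which ran from 1.38 to 3.72 FPKM. Invs (48279760 to 48396314) encodes inversin, a protein of the primary cilium that sets left-right asymmetry and restrains canonical Wnt signaling. It had 1.32, 1.43 and 1.49 FPKM in Δ3102 mice, against 3.12, 3.33, 3.22 and 3.25 FPKM in NG-KO mice, a log2 fold change of -1.20 (standard error 0.084, adjusted p = 0.00286), and the other 10 libraries reached at most 1.76 FPKM. Of the 20 other tested genes that start within 1 Mb of Alad, 4 were lower and 0 higher at an unadjusted p under 0.05, and of the 14 near Invs 2 were lower and 0 higher. These are 20.0% and 14.3% of the neighbors, against 6.59% of all tested genes. None of these neighbors was called by edgeR or limma, and DESeq2 called Hdhd3 and, near Invs, the glycosyltransferase gene Alg2.

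Myh10 was the lower gene in which Δ3102 mice, not NG-KO mice, stood apart. It encodes nonmuscle myosin heavy chain IIB, the actin motor of neurons that shapes dendritic spines and growth cones. Myh10 (chromosome 11, 68691559 to 68816632) had 13.9, 13.9 and 12.9 FPKM in Δ3102 mice, against 23.4, 25.5, 24.7 and 24.8 FPKM in NG-KO mice. The other 11 libraries, AG-KO and WT mice included, ran from 22.9 to 27.6 FPKM. Myh10 was thus 1.83-fold lower in Δ3102 mice, with a log2 fold change of -0.87 (standard error 0.059, adjusted p = 0.00283). The other heavy chains of nonmuscle myosin II, Myh9 and Myh14, missed the threshold. Myh9 had 10.2 ± 0.601 FPKM in Δ3102 mice (SD, n = 3) and 9.39 ± 1.01 in NG-KO mice (SD, n = 4), a log2 fold change of 0.11 with an adjusted p of 0.902. Myh14 had 4.76 ± 0.374 FPKM in Δ3102 mice (SD, n = 3) and 4.42 ± 0.572 in NG-KO mice (SD, n = 4), a log2 fold change of 0.091 with an adjusted p of 0.938. Of the 19 tested genes in a list of myosin II and actin regulators, 2 light chains were higher at an unadjusted p under 0.05, Myl9 (0.27) and Myl12a (0.34), and no member besides Myh10 was called. With Myh10, 15.8% of the list stood at that level, against 6.59% of all tested genes. Over all 16597 genes, Δ3102 mice lay below all other 11 libraries for 36 (0.217%) and above them for 55 (0.331%), of which Myh10 and Gm49527 were called. NG-KO mice lay below all other 10 for 81 (0.488%) and above them for 52 (0.313%).

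The genes next in order of p include others of this kind. Ndn, which encodes necdin, a growth suppressor of postmitotic neurons that is expressed from the paternal allele, had 37.3, 37.7 and 40.9 FPKM in Δ3102 mice, against 61.5, 83.3, 75.1 and 90.9 FPKM in NG-KO mice. The other 11 libraries had 48.8 FPKM or more. It had a log2 fold change of -1.02 (standard error 0.12, adjusted p = 0.0634), and without NG-KO replicate 1 it was -1.11 with an adjusted p of 0.0114. Prkar2b, a regulatory subunit of the cAMP-dependent protein kinase, had 3.96, 4.06 and 4.42 FPKM in Δ3102 mice, against 6.903, 9.83, 6.88 and 8.87 FPKM in NG-KO mice, again below all other 11 libraries, whose lowest value was 5.89. Its log2 fold change of -0.98 did not pass (adjusted p = 0.184). Tnpo2, a nuclear import receptor, had 15.7, 16.8 and 13.4 FPKM in Δ3102 mice, against 25.2, 30.6, 28.6 and 31.4 FPKM in NG-KO mice, a log2 fold change of -0.93 with an adjusted p of 0.0505, just over the threshold. For Tnpo2 the NG-KO mice were high, but AG-KO replicate 4 reached 26.8 FPKM as well. Camk4, a calcium and calmodulin dependent kinase of neurons that acts on CREB, had 6.46 ± 0.4398 FPKM in Δ3102 mice (SD, n = 3) and 9.64 ± 0.574 in NG-KO mice (SD, n = 4), a log2 fold change of -0.59 (adjusted p = 0.241). In the other direction, the genes next in order of p included the kidney genes Slc22a2, Slc27a2 and Fbp1 and also Pvalb, all given further on. Frmpd4 and Aven were 2 others. Frmpd4, a scaffold of the postsynapse that binds PSD-95, had 4.23, 3.44 and 3.86 FPKM in Δ3102 mice, against 1.91, 1.31, 1.19 and 1.91 FPKM in NG-KO mice, a log2 fold change of 1.27 (adjusted p = 0.184). Aven, an inhibitor of apoptosis, had 3.15, 3.06 and 3.59 FPKM in Δ3102 mice, against 2.15, 1.91, 2.02 and 1.76 FPKM in NG-KO mice (0.72, adjusted p = 0.382).

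Among the higher genes, Wdr77, a partner of the arginine methyltransferase PRMT5, was 2.604-fold higher in Δ3102 mice. Wdr77 (chromosome 3, 105959369 to 105969760) had 13.6, 11.9 and 12.1 FPKM in Δ3102 mice, against 3.73, 4.25, 5.297 and 5.83 FPKM in NG-KO mice, a log2 fold change of 1.38 (standard error 0.15, adjusted p = 0.0494). WT mice lay on both sides, at 4.24, 11.9 and 16.04 FPKM, and AG-KO mice had 3.86 to 5.14 FPKM. The kidney gene Kap, described further on, was also high in WT replicates 2 and 3 and low in WT replicate 1, and its part in the Wdr77 values was not tested. Gm42890 overlaps Wdr77, and with both models added up the log2 fold change was 1.20 (adjusted p = 0.0154). Dubr, a long noncoding RNA gene of chromosome 16 (50719294 to 50732773), had 1.45, 1.08 and 1.84 FPKM in Δ3102 mice, against 0.221, 0.333, 0.262 and 0.323 FPKM in NG-KO mice, a log2 fold change of 2.34 (standard error 0.26, adjusted p = 0.0494). The NG-KO mice lay below all other 10 libraries, of which the lowest, WT replicate 3, had 0.613 FPKM.

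Gm49527 (chromosome 15, 76879320 to 76901283) spans the zinc finger gene Zfp7 and Commd5, a regulator of endosomal sorting, so that reads of 3 models overlap. It had 96, 569 and 609 counts in Δ3102 mice and 1, 2, 1 and 0 in NG-KO mice, that is 0.832, 5.34 and 6.401 FPKM in Δ3102 mice, against 0.005103, 0.0172, 0.00713 and 0.0001 FPKM in NG-KO mice. Its log2 fold change of 8.59 (standard error 0.94, adjusted p = 0.0494) rests on the 4 counts of the NG-KO mice and depends on the prior count. Commd5 pointed the other way in the 2 Δ3102 mice with the most Gm49527, with 9.21, 1.02 and 2.02 FPKM in Δ3102 mice, against 7.15, 8.57, 8.53 and 8.55 FPKM in NG-KO mice. Commd5 had a log2 fold change of -1.02 (adjusted p = 0.834). With the counts of Gm49527, Zfp7 and Commd5 added up, the difference came to 0.16 on the log2 scale (standard error 0.16, adjusted p = 0.907).

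Eno2, whose promoter drives Cre in NG-KO mice, was itself measured. It encodes neuron-specific enolase, a glycolytic enzyme of neurons. Eno2 (chromosome 6, 124760053 to 124769621) had 148, 143 and 136 FPKM in Δ3102 mice, against 177, 181, 173 and 184 FPKM in NG-KO mice. The groups did not overlap, and the NG-KO mice lay above all other 10 libraries, of which the highest had 171 FPKM. Its log2 fold change was -0.34 (standard error 0.049), with an unadjusted p of 1.58e-04 and an adjusted p of 0.164 from edgeR. DESeq2 gave 8.13e-05, and the exact permutation p of FPKM was 0.0286 (0.0857 over the 6 genes). Gapdh starts 401662 bases from the start of Eno2. Within 1 Mb of Eno2, 4 of 44 other tested genes were higher and 2 lower at an unadjusted p under 0.05 (13.6%), and within 5 Mb 5 of 118 were higher and 7 lower (10.2%), against 6.59% of all tested genes. None was called by edgeR or limma, and within 5 Mb DESeq2 called 2, Usp18 and Tspan11.

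Among these neighbors, the 4 higher ones within 1 Mb at an unadjusted p under 0.05 were C1ra (1.41), Ncapd2 (0.43), Zfp384 (0.29) and Ptms (0.21). The 2 lower ones were Gpr162 and Pianp (-0.26). The genes whose levels follow were all lower in Δ3102 mice and were chosen after their values were seen. Gpr162, an orphan receptor, had 25.01, 24.2 and 27.1 FPKM in Δ3102 mice, against 34.2, 30.3, 30.2 and 32.4 FPKM in NG-KO mice, a log2 fold change of -0.34 (adjusted p = 0.516). Tspan11, a tetraspanin 3 Mb from Eno2, had 0.173, 0.123 and 0.155 FPKM in Δ3102 mice, against 1.11, 0.547, 0.923 and 0.604 FPKM in NG-KO mice, a log2 fold change of -2.41 (adjusted p = 0.169). The other 10 libraries reached 0.239 FPKM at most, so that the NG-KO mice stood apart. Usp18, a protease that removes ISG15 in the interferon response, had 0.386, 0.237 and 0.262 FPKM in Δ3102 mice, against 1.36, 1.105, 0.588 and 0.952 FPKM in NG-KO mice, a log2 fold change of -1.75 (adjusted p = 0.516). AG-KO mice had 0.370 to 1.20 FPKM of Usp18 and so overlapped the NG-KO mice. Further away, at between 6 and 7 Mb, Magohb, a subunit of the exon junction complex, had 1.46 ± 0.234 FPKM in Δ3102 mice (SD, n = 3) and 3.55 ± 0.654 in NG-KO mice (SD, n = 4), a log2 fold change of -1.29 (adjusted p = 0.389). The pseudogene Gm44958, which overlaps Magohb, had 0.0612, 0.0001 and 0.0001 FPKM in Δ3102 mice, against 0.643, 0.929, 0.732 and 1.12 FPKM in NG-KO mice. Its fitted log2 fold change, -5.14, rests on libraries with almost no counts and depends on the prior count.

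**Figure D3:**
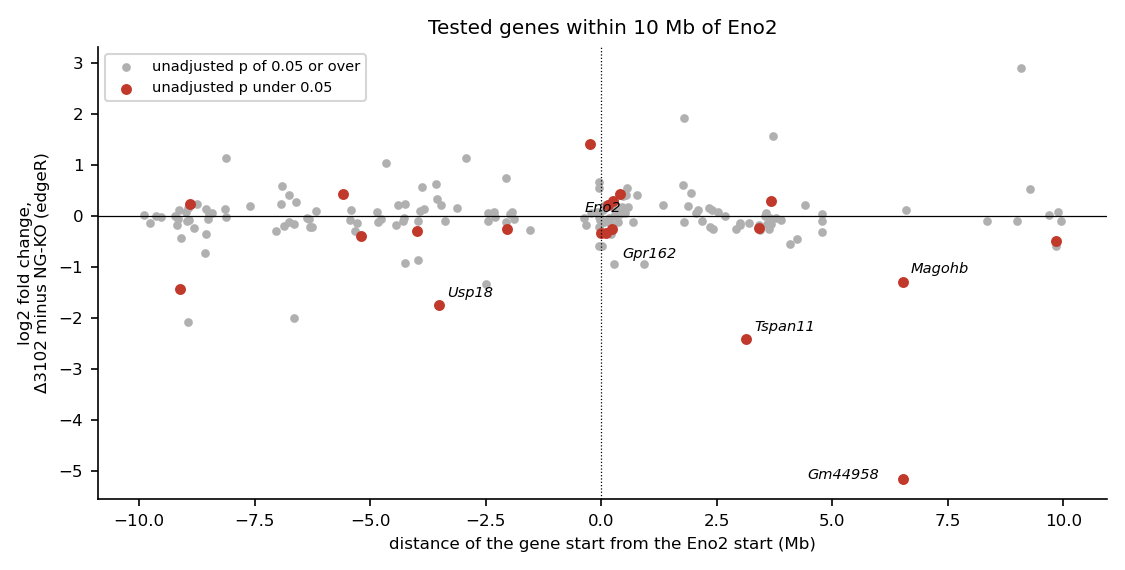
Log2 fold change of Δ3102 minus NG-KO mice (y axis, edgeR) against the distance of each gene's start from that of Eno2 in Mb (x axis), for the tested genes within 10 Mb, 1 point per gene, red where the unadjusted p was under 0.05. Eno2 lies at -0.34, Usp18 at -1.75, Tspan11 at -2.41, Magohb at -1.29 and Gm44958 at -5.14.

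The study followed Pja1, a RING ubiquitin ligase abundant in brain, and Serpina3n, a secreted serine protease inhibitor of reactive astrocytes. Pja1 (chromosome X, 99465734 to 99471273) had 19.9, 14.8 and 19.7 FPKM in Δ3102 mice, against 57.4, 61.95, 57.2 and 24.96 FPKM in NG-KO mice. NG-KO replicate 4 lay near the Δ3102 mice and the other 3 NG-KO mice far above them. WT mice had 45.9 to 61.4 FPKM, and AG-KO mice had 14.7 to 27.4 FPKM. Over all 7 mice its log2 fold change was -1.49 (standard error 0.31), with an adjusted p of 0.466 from edgeR and an exact permutation p of 0.0571 (0.114 over the 6 genes). Without NG-KO replicate 4 the log2 fold change was -1.71 with an adjusted p of 0.0151, and without each other library the adjusted p lay between 0.558 and 0.945. DESeq2 gave 7.28e-05 with all 7. Its paralog Pja2 had 40.97 ± 1.01 FPKM in Δ3102 mice (SD, n = 3) and 36.7 ± 1.44 in NG-KO mice (SD, n = 4) (log2 fold change 0.14, adjusted p = 0.719). Serpina3n had 28.0, 33.1 and 31.4 FPKM in Δ3102 mice, against 29.6, 25.4, 32.9 and 23.9 FPKM in NG-KO mice, with overlapping groups, a log2 fold change of 0.13 (standard error 0.13, adjusted p = 0.915) and an exact permutation p of 0.343.

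Dbn1 and Gfap differed by less than the spread between mice. Dbn1 encodes drebrin, an actin-binding protein of dendritic spines. It had 56.2, 56.6 and 64.5 FPKM in Δ3102 mice, against 56.7, 56.95, 59.1 and 57.7 FPKM in NG-KO mice and a log2 fold change of 0.024 (standard error 0.062, exact permutation p = 0.771) that turned negative without Δ3102 replicate 3 (-0.036). Gfap, the intermediate filament of astrocytes, had 84.9, 86.4 and 93.8 FPKM in Δ3102 mice, against 94.6, 78.7, 89.7 and 61.1 FPKM in NG-KO mice. Its log2 fold change was 0.11 (standard error 0.15, exact permutation p = 0.543), and it turned negative without NG-KO replicate 4 (-0.0053).

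The lists of reactive astrocyte genes gave no called member. Of the 10 tested A1 genes, those of the neuroinflammatory type, 1 was higher and 0 lower at an unadjusted p under 0.05, Fbln5 (log2 fold change 0.61), and the median log2 fold change was 0.14. The 5 tested A2 genes held none, at a median of -0.041. Of the 9 tested pan-reactive genes 1 was higher, Cp, which encodes ceruloplasmin (0.57), at a median of 0.12. Of the 4 tested cytokine genes none differed at this level, and their median was 0.048. The single members are 10.0% of the A1 and 11.1% of the pan-reactive list, against 6.59% of all tested genes. DESeq2 and limma called no member of these 4 lists either. The 15 astrocyte markers had no member at an unadjusted p under 0.05, a median of 0.026 and summed levels of 713 to 769 FPKM in Δ3102 mice and 683 to 762 in NG-KO mice. Slc1a2, the main glutamate transporter of astrocytes, had 112 ± 11.3 FPKM in Δ3102 mice (SD, n = 3) and 105 ± 9.51 in NG-KO mice (SD, n = 4), and Aldoc, their aldolase, 248 ± 11.5 FPKM in Δ3102 mice (SD, n = 3) and 252 ± 15.7 in NG-KO mice (SD, n = 4).

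The list of GPR30 and steroid receptors held 7 tested genes, and Gper1 was the only member at an unadjusted p under 0.05. Nr3c2, the mineralocorticoid receptor, had 21.1 ± 4.26 FPKM in Δ3102 mice (SD, n = 3) and 20.4 ± 4.64 in NG-KO mice (SD, n = 4), and Nr3c1, the glucocorticoid receptor, 5.73 ± 0.8996 FPKM in Δ3102 mice (SD, n = 3) and 4.995 ± 0.717 in NG-KO mice (SD, n = 4). Of 32 tested genes of cAMP, MAPK and AKT signaling, 2 were lower at an unadjusted p under 0.05 and 0 higher, 6.25% against 6.59% of all tested genes, at a median of -0.035. Prkar2b, given above, was among them. DESeq2 called Prkar2b, and limma called none. The most abundant members were regulatory subunits of the same kinase, Prkar1a with 162 ± 6.24 FPKM in Δ3102 mice (SD, n = 3) and 169.7 ± 12.1 in NG-KO mice (SD, n = 4), and Prkar1b with 169 ± 17.8 FPKM in Δ3102 mice (SD, n = 3) and 169 ± 13.6 in NG-KO mice (SD, n = 4). Among the 13 tested Praja ligases, serpins and related genes, Serpine2, which encodes protease nexin-1, was lower (-0.22) and Pja2 higher beside Pja1, each at an unadjusted p under 0.05. At that level stood 23.1% of this list and 14.3% of the receptor list, against 6.59% of all tested genes.

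Synaptic, activity and clock lists held members at an unadjusted p under 0.05, namely 11.5% of spine, 11.1% of presynapse, 14.3% of immediate early and 17.6% of clock genes, against 6.59% of all tested genes. Of 26 tested spine and postsynapse genes, 1 was called, Myh10. At an unadjusted p under 0.05, Nlgn2, the neuroligin of inhibitory synapses, was lower (-0.18) and Homer1, a scaffold that links glutamate receptors to calcium stores, higher (0.40, adjusted p = 0.537). The list's median was -0.0038, and Camk2a had 418 ± 52.6 FPKM in Δ3102 mice (SD, n = 3) and 407 ± 68.8 in NG-KO mice (SD, n = 4). Of 18 tested presynapse genes Vamp2 (-0.14) and Syn1 (-0.11), both of synaptic vesicles, were lower at an unadjusted p under 0.05, at a median of -0.028. Of 21 immediate early genes, which neurons switch on when they fire, Junb (-0.48) and Npas4 (-0.63) were lower and Homer1 was higher at this level, and DESeq2 called Homer1. Jun, the most abundant, had 32.5 ± 7.88 FPKM in Δ3102 mice (SD, n = 3) and 35.7 ± 1.796 in NG-KO mice (SD, n = 4), and Arc had 23.5 ± 1.27 FPKM in Δ3102 mice (SD, n = 3) and 25.8 ± 7.497 in NG-KO mice (SD, n = 4). Among the 17 clock genes, Nr1d1 (-0.39) and Dbp (-0.51) were lower and Per2 (0.21) was higher at an unadjusted p under 0.05, and DESeq2 called Dbp.

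Stress and immune lists leaned in parts. Of 17 glucocorticoid-response genes, 5 were higher and 2 lower at an unadjusted p under 0.05, against 3.53% and 3.06% of all tested genes, at a median of 0.33. The higher ones were Cdkn1a, the cell cycle inhibitor p21 (0.79), Arrdc2 (0.52), Pdk4, a brake on pyruvate oxidation (0.50), Nfkbia, the inhibitor of NF-kappaB (0.47), and Zbtb16 (0.33). The lower ones, Mt2 (-0.43) and Mt1 (-0.26), are metallothioneins, and no member was called by edgeR, DESeq2 or limma. Of 23 interferon and antigen presentation genes, H2-K1, a classical class I molecule, was higher (0.71) and Ifi27 (-0.50), Ifit3 (-0.69) and Usp18 were lower at this level. Of 18 heat shock and chaperone genes, 1 had an unadjusted p under 0.05, Hspa5, the chaperone BiP of the endoplasmic reticulum, with 46.4 ± 4.53 FPKM in Δ3102 mice (SD, n = 3) and 33.5 ± 3.796 in NG-KO mice (SD, n = 4) (0.46, adjusted p = 0.516). All 13 mitochondrially encoded transcripts had negative log2 fold changes, at a median of -0.20, with mt-Co3 (-0.23) and mt-Nd3 (-0.27) at an unadjusted p under 0.05. Their sums overlapped, at 34240 to 39270 FPKM in Δ3102 mice and 34370 to 47720 in NG-KO mice. The shares at an unadjusted p under 0.05 were 17.4%, 5.56% and 15.4% for the interferon, heat shock and mitochondrial lists. Over all tested genes the share was 6.59%.

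Glycolysis genes other than Eno2 gave 2 lower members at an unadjusted p under 0.05, Pgam1 (-0.21) and the neuronal glucose transporter Slc2a3 (-0.26). The muscle enolase Eno3, which is also among the muscle markers below, was higher (1.43). Among the 21 tested clustered gamma protocadherins, which give neurons and astrocytes surface identities, 2 were higher and 3 lower at this level, at a median of 0.012. That is 23.8% of the list, against 21.05% of the glycolysis list with Eno2 and 6.59% of all tested genes. The log2 fold changes ran from -1.50 to 2.39. These isoforms share their 3′ exons, so that reads cannot be assigned to them with certainty.

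**Figure D4:**
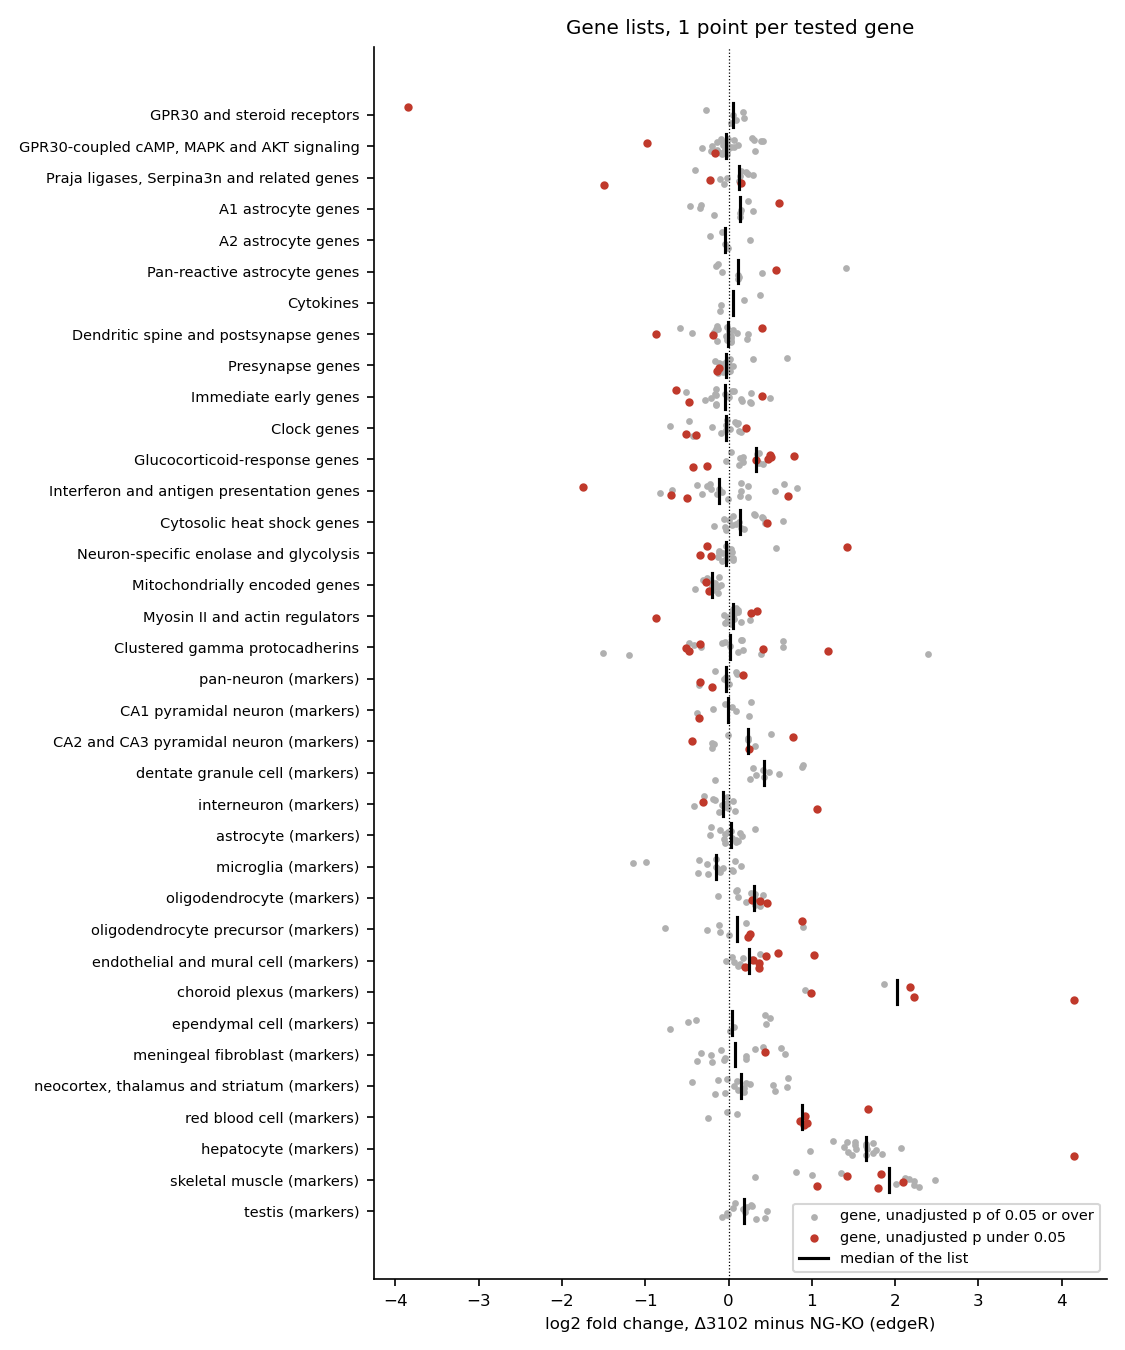
Log2 fold changes of Δ3102 minus NG-KO mice (x axis, edgeR) of the tested members of 36 gene lists (rows), 1 point per gene, red where the unadjusted p was under 0.05, with the median of each list as a black line. The medians of most lists lie close to 0, and those of choroid plexus, muscle, hepatocyte and red blood cell markers at 2.02, 1.92, 1.65 and 0.88.

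Markers of hippocampal neurons were present in every library. The sums of the 12 pan-neuronal markers did not overlap, at 1453 to 1545 FPKM in Δ3102 mice and 1566 to 1650 in NG-KO mice, with Eno2 and Uchl1 (-0.20) lower and Nefm (0.18) higher at an unadjusted p under 0.05. The median of this list was -0.028, and 4 of the 12 had positive log2 fold changes. Abundant members weigh most in such a sum, among them Uchl1, with means of 263 FPKM in Δ3102 mice and 300 in NG-KO mice. The sums of AG-KO mice ran from 1363 to 1597 FPKM. Of 10 dentate granule cell markers 9 had positive log2 fold changes, at a median of 0.42, and none had an unadjusted p under 0.05. Their sums overlapped, at 69.1 to 115.5 FPKM in Δ3102 mice and 57.6 to 94.8 in NG-KO mice. Pvalb, the calcium buffer of fast-spiking interneurons and of fast muscle fibers, had 98.8, 106 and 110.1 FPKM in Δ3102 mice, against 58.98, 55.9, 48.9 and 35.3 FPKM in NG-KO mice, a log2 fold change of 1.06 (adjusted p = 0.241). Of the 14 interneuron markers 3 had positive log2 fold changes, at a median of -0.069. At an unadjusted p under 0.05 Pvalb was the only higher member and Kit (-0.31) the only lower one. Sst, a peptide of another interneuron class, had 297 ± 16.1 FPKM in Δ3102 mice (SD, n = 3) and 318 ± 54.3 in NG-KO mice (SD, n = 4). Of 14 oligodendrocyte markers 13 had positive log2 fold changes, at a median of 0.30, with Mal (0.46), Cldn11 (0.38) and Mbp (0.29) at an unadjusted p under 0.05 (21.4%, against 6.59% of all tested genes). Of 16 endothelial and mural markers, 7 were higher and 0 lower at this level, against 3.53% and 3.06% of all tested genes, at a median of 0.25. Kcnj8 and Abcc9, the 2 subunits of the potassium channel of pericytes, had log2 fold changes of 1.02 and 0.59. The sums of this list did not overlap, at 169 to 187 FPKM in Δ3102 mice and 145 to 158 in NG-KO mice. The 15 microglia markers had a median of -0.15 and no member at an unadjusted p under 0.05. Of 8 CA1 markers 1 was lower, Fibcd1 (-0.36). Of 11 CA2 and CA3 markers 2 were higher, Nectin3 (0.77) and Pcp4 (0.25), and Elavl2 was lower (-0.43). Of 10 markers of oligodendrocyte precursors 3 were higher, Enpp6 (0.88), Olig2 (0.26) and Olig1 (0.23), all at an unadjusted p under 0.05. No marker list held a gene called by edgeR or limma. DESeq2 called Eno2, Pvalb and Kcnj8 among the markers of brain cells.

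Transcripts of other organs differed between mice, also within a genotype, and those of muscle and kidney differed between the 2 groups as well. Muscle genes lay higher in Δ3102 mice, and 13 of 16 tested skeletal muscle markers did not overlap between the groups, against 5.18% of all tested genes above without overlap. Their median log2 fold change was 1.92, their sum 812 to 1011 FPKM in Δ3102 mice and 81.0 to 407 in NG-KO mice. The sum ran from 164 to 936.5 FPKM in WT mice and from 42.5 to 419 in AG-KO mice. Acta1, the actin of skeletal muscle, had 112, 124 and 178 FPKM in Δ3102 mice, against 58.3, 60.8, 33.9 and 4.39 FPKM in NG-KO mice. A kidney tubule list was added after the data were seen, so its counts describe the list and test nothing. Of 17 tested, 15 lay higher in Δ3102 mice without overlap and 11 were higher at an unadjusted p under 0.05, against 5.18% and 3.53% of all tested genes, at a median of 2.59. Kap, an androgen-regulated protein of the proximal tubule, had 359, 385 and 349 FPKM in Δ3102 mice, against 1.12, 0.739, 94.6 and 97.7 FPKM in NG-KO mice. It stood at 2.38, 364 and 491 FPKM in the WT mice and at 18.1 to 127 in AG-KO mice. The kidney transporters and enzymes Slc22a2 (2.52, adjusted p = 0.0816), Slc27a2 (1.60, 0.155) and Fbp1 (1.57, 0.292) were among the 10 higher genes of smallest p once predicted gene models and Gapdh copies were set aside. No kidney gene was called by edgeR or limma, and DESeq2 called 8.

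The liver list showed no such split by genotype. The 19 tested hepatocyte markers had a median of 1.65 and 1 member at an unadjusted p under 0.05, Ttr, which the choroid plexus also makes. Alb, serum albumin, had 161, 189 and 1.11 FPKM in Δ3102 mice, against 1.996, 55.8, 41.7 and 49.6 FPKM in NG-KO mice, so that Δ3102 replicate 3 and NG-KO replicate 1 were low. Ttr had 1405, 92.7 and 14.4 FPKM in Δ3102 mice, against 1.81, 42.1, 39.3 and 30.2 FPKM in NG-KO mice. Of 6 tested choroid plexus markers 4 were higher at an unadjusted p under 0.05, against 3.53% of all tested genes, among them Aqp1, a water channel (2.22), and Folr1, a folate receptor (2.18). The summed level of the list was uneven, at 1454, 102 and 24.96 FPKM in Δ3102 replicates 1, 2 and 3. It overlapped the 7.30 to 48.4 FPKM of NG-KO mice. Folr1 overlapped too, with 5.30, 0.646 and 1.18 FPKM in Δ3102 mice and up to 1.04 FPKM in NG-KO mice. Of the 8 tested red blood cell markers 5 were higher at this level (62.5%, against 3.53% of all tested genes). They were the 4 globin genes and Alas2, the erythroid enzyme that starts heme synthesis. Hba-a1 had 162, 209 and 143 FPKM in Δ3102 mice, against 64.4, 74.3, 108 and 128 FPKM in NG-KO mice, a log2 fold change of 0.86 (adjusted p = 0.708), and Alas2 had 2.07, 2.02 and 1.57 FPKM in Δ3102 mice, against 0.392, 0.465, 0.643 and 0.803 FPKM in NG-KO mice (1.68, adjusted p = 0.389). DESeq2 called Aqp1 and Alas2. The testis, ependymal, meningeal and neighboring brain region lists held 1 member together at an unadjusted p under 0.05, Col1a1 (0.44). Some libraries of both groups held transcripts of male germ cells although all mice were female. Tnp2, a transition protein of spermatids, had 0.208, 0.424 and 56.8 FPKM in Δ3102 mice, against 27.6, 0.0001, 15.5 and 16.6 FPKM in NG-KO mice, and so lay high in Δ3102 replicate 3 and in NG-KO replicates 1, 3 and 4. The part of these transcripts in the counts of genes above was not tested.

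**Figure D5:**
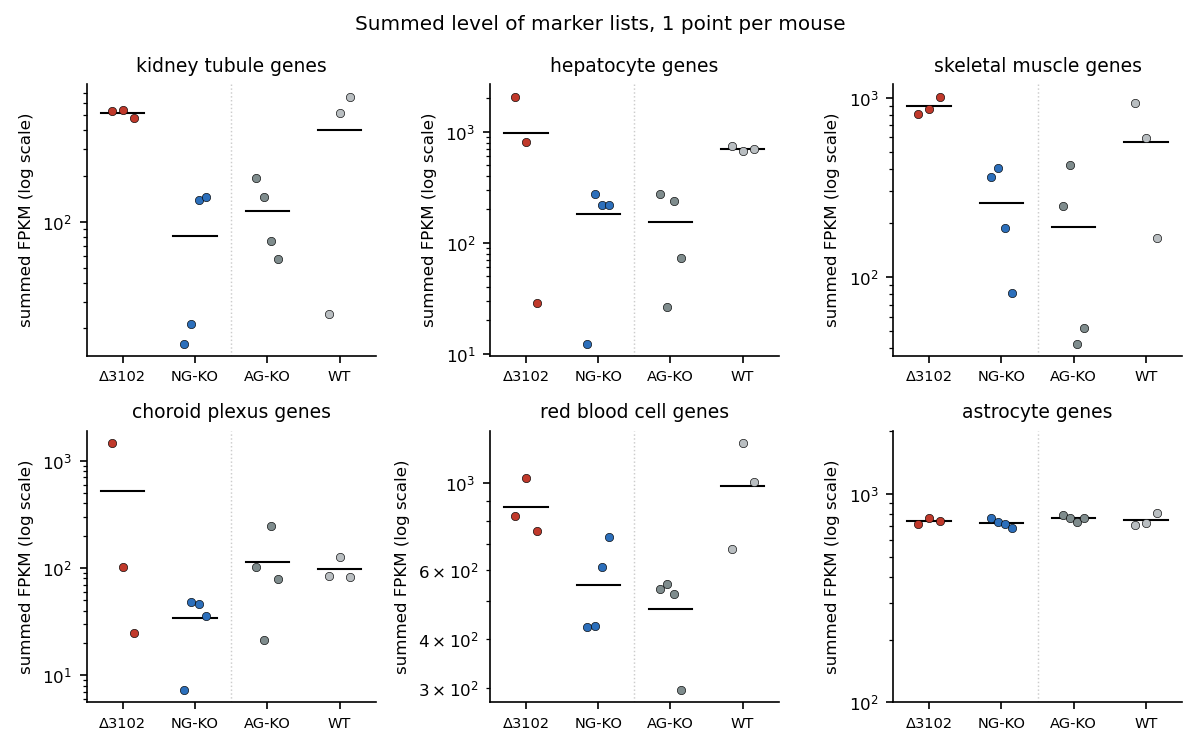
Summed FPKM (y axis, log scale) of 6 marker lists in each mouse, 1 point per mouse with the group mean as a line, for Δ3102, NG-KO, AG-KO and WT mice. Kidney and muscle genes lie higher in all Δ3102 mice than in all NG-KO mice, hepatocyte and choroid plexus genes overlap, and astrocyte genes lie within 683 to 769 FPKM in both groups.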

How the data were processed

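Poly(A) RNA of the hippocampus was sequenced in 14 libraries, and the 3 Δ3102 and 4 NG-KO libraries, grouped by genotype label, were compared. By the methods and the submitters' processing notes, the authors trimmed reads with cutadapt 1.9, mapped them with HISAT2 2.0.4 to GRCm38 and computed FPKM with StringTie 1.3.4d. The deposited table holds a count and an FPKM per gene and library. The counting program and its use of strand are not given in the sources used here, so overlapping and antisense models are uncertain. FPKM holds 0.0001 where a gene had no signal. All value columns were mapped to a sample.

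Counts were tested with edgeR 4.0.16 (TMM, quasi-likelihood) in R 4.3.3, for genes that reached 0.5 FPKM in 3 or more of the 7, with Benjamini-Hochberg adjustment. The script was tested on simulated data. Alternatives were DESeq2 1.42.0, limma 3.58.1 on log2(FPKM + 0.1), + 1 or + 0.01, other filters and scalings, all 14 libraries in 1 fit, the replicate number as a block, and each library left out. Adding up copies and overlapping models was chosen after seeing the data. Copies of Gapdh were found by aligning GENCODE vM21 transcripts with blastn.

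Named were Gper1, Pja1, Serpina3n, Dbn1, Gfap, Eno2 and the called genes of either direction whose groups do not overlap, filled with the smallest p to 10. Their mean FPKM had to reach 1 in the higher group. Called members and the most abundant members of each list were also named. Predicted gene models, Gapdh copies, neighbors of Eno2, list members with an unadjusted p under 0.05 and the kidney list were chosen after their values were seen. The lists were chosen with earlier results of these data known. Nothing says whether the mice shared litters or batches, so p-values measure the spread between these libraries. The values of 1 list member are not reported here.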

Additional observations from a re-analysis of the deposited data

Results flagged for a closer look

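Within the 4 NG-KO mice, 1 mouse lay far from the other 3 for 3 of the 120 genes looked at, where the gap to the nearest mouse, divided by the range of the group, was above Dixon's critical value for 4 samples. Chance flags about 1 in 20 such groups. Pja1 stood at 24.96 FPKM in NG-KO replicate 4, against 57.4, 61.95 and 57.2 in the other NG-KO mice. Commd5 stood at 7.15 FPKM in NG-KO replicate 1, below the 8.57, 8.53 and 8.55 of the others. Junb, an immediate early gene, stood at 21.9 FPKM in NG-KO replicate 4, against 16.1, 16.2 and 15.7 in the others.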

How the results depend on the processing

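The count of 9 genes at an adjusted p under 0.05 became 114 with DESeq2, which held all 9, 1 under the replicate block and 4 with copies and overlapping models added up. Leaving out 1 library gave 6 to 12, and the remaining alternatives 6 to 11. The 247 genes past the thresholds of the methods became 679 without a filter on low values, 156 at an FPKM of at least 1 and 8 with the adjusted p in place of P. Leaving out 1 library gave 231 to 424, the highest without Δ3102 replicate 3. Deviations of same-numbered mice had correlations of -0.232, 0.278 and 0.0843, so the numbers were not taken to pair mice. Under the replicate block only Gm13394 passed (adjusted p = 0.00331, edgeR). Of 2143 log2 fold changes of 120 genes under the alternatives, 2048 kept their direction and their side of the threshold, 46 lost the threshold, 43 gained it and 6 changed sign. The sign changes were Dbn1 without Δ3102 replicate 3 (-0.036), Gfap under the replicate block (-0.00495) and without NG-KO replicate 4 (-0.0053), Gapdh without Δ3102 replicate 2 (-0.042) and without NG-KO replicate 1 (-0.061), and Zfp7 without NG-KO replicate 1 (-0.035). With 1 library left out, Dbn1 reached at most 0.064, Gfap 0.20, Gapdh 0.12 and Zfp7 0.29. The cause was not tested. With 3 and 4 mice, genes of few counts such as Gm49527 had wide errors.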
